A study of Mus musculus with 4 samples.

Results

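Gene expression in the lateral mandibular arch of mouse embryos at E11.5 (embryonic stage in days), called LMA, was set against that in the medial mandibular arch at E9.5, called MMA. These are 2 of the 4 arrays of a study of tongue and jaw development, chosen by their stage and region labels, and each tissue was measured on 1 array. The other tissues were lingual swellings of E11.5 embryos (LLS) and E14.5 tongue (T), and their values stand beside the comparison only where they help to read it. All embryos were of the ICR stock, an outbred mouse, and the labels name no engineered allele and no treatment. The MMA array received RNA pooled from 12 embryos, and the LMA, LLS and T arrays RNA pooled from 4 embryos each, labelled with the dye Cy3.

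The mandibular arch is the first pharyngeal arch's lower part, from which the lower jaw, the chewing muscles and much of the tongue are built. Its mesenchyme comes mostly from cranial neural crest, its core holds mesoderm that gives rise to muscle, and it is covered by ectoderm outside and lined by endoderm inside. Between these stages the arch grows out, muscle precursors enter differentiation, connective tissue begins to form and the patterning signals from the covering epithelium change. LMA and MMA differ both in stage and in region, so a difference due to age and a difference due to position cannot be told apart here. With 1 pool per tissue there is no spread between replicates and no test, and each difference below compares these 2 arrays only.

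Signals are given as scaled signal, in which 1 is the 75th percentile of all non-control probes on the same array. A difference is the log2 scaled signal in LMA minus that in MMA, so that 1 means 2-fold higher and -1 means 2-fold lower in LMA. Of 59305 non-control spots, 57.0% were well above background in MMA and 62.9% in LMA, and 0 were saturated. Over 284 probes with repeated spots, a difference between single spots had an SD of 0.062, which covers spot error in well-measured probes but not differences between pools of embryos. A gene is represented by its brightest probe. Where that probe was not well above background in one tissue, the difference is a bound, written as at least that size. A bound holds only for the background subtraction used here, and another background correction gave smaller values.

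Among the 17704 genes compared, LMA was higher by at least 2-fold for 1837 and lower by at least 2-fold for 1260, which is 10.4% and 7.12%. Bounds made up 453 of the higher and 179 of the lower genes. The median difference of all genes was -0.06. Higher genes made up 59.3% of these calls, and 69.6% when the percentile was taken over probes well above background on all 4 arrays (2182 higher and 955 lower). At least 4-fold differences were seen for 621 higher and 257 lower genes. The 2 arrays gave signals well above background for 17312 genes in LMA and 15878 in MMA. Probes of one gene did not always give one value. Among 1271 called genes with another usable probe, all other probes had the same direction in 84.7%, and all reached 2-fold in 42.9%.

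**Figure D1:**
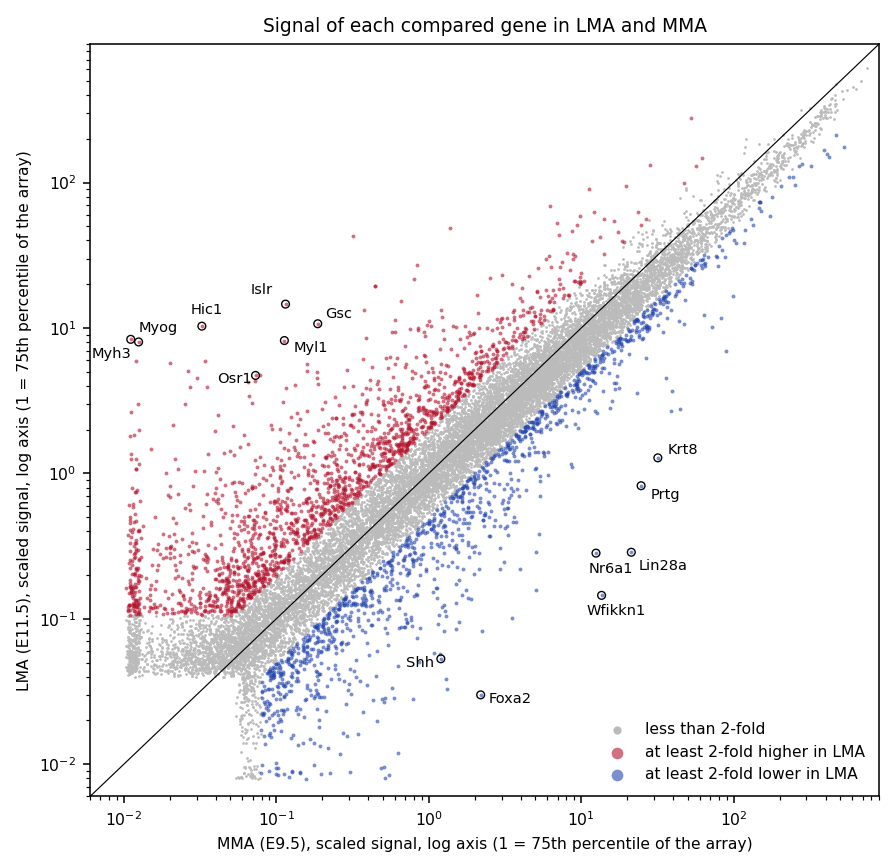
Scaled signal of each of the 17704 compared genes in MMA (horizontal) and LMA (vertical), both on log axes where 1 is the 75th percentile of the array. Each point is a gene on 1 array per tissue, red points are at least 2-fold higher and blue points at least 2-fold lower in LMA, and the line marks equal signal; signals not well above background are drawn as measured. Muscle and mesenchyme genes such as Myog, Hic1 and Islr lie far above the line, and Lin28a, Nr6a1, Prtg and Krt8 far below it.

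The arch labels were first set against genes that mark this tissue. Msx1, a homeobox gene of arch mesenchyme, had a scaled signal of 26.3 in MMA and 25.1 in LMA. Pitx1, a homeobox gene of the lower jaw, had 21.3 and 19.2, and Nr2f1, an orphan nuclear receptor gene of cranial neural crest, had 18.8 and 17.0. All of these were bright in both tissues and differed by less than 2-fold. Hox genes, which pattern the arches behind the jaw and are largely silent in the first arch, were dim. Of 15 Hox genes, 6 were not well above background in both tissues. Hoxa2 measured 0.0198 in MMA, not well above background, and 0.370 in LMA, while Hoxa3 measured 0.0126, not well above background, and 0.410. Both were therefore higher in LMA, by at least 2.79 and at least 2.93, at a low level. Of the 9 Hox genes compared, 4 were higher by 2-fold or more and 1 was lower by that much, against 2 and 0 with normexp background correction.

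Skeletal muscle genes formed the group with the largest shift toward LMA. Muscle is built in order: progenitors expressing Pax3 or Pax7, commitment by Myod1 and its relatives, fusion of cells through membrane proteins, and assembly of the contractile apparatus with its calcium and nerve receptors. Myog, the myogenin gene that drives differentiation, measured 0.0111 in MMA, not well above background, against 8.36 in LMA, 2.98 in LLS and 23.6 in T. It was thus high in every tissue except the youngest, and at least 156-fold higher in LMA than in MMA (at least 7.28). With normexp background correction the Myog difference was 5.47. Myod1, the gene of the commitment factor MyoD, measured 0.0110 in MMA, not well above background, and 1.80 in LMA, at least 5.07 higher. Its relatives Myf5 and Myf6 stood apart: Myf5 was not well above background in either tissue, and Myf6 reached 0.0586 in LMA, a bound of 0.13.

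The progenitor genes were also brighter in LMA. Pax3 measured 0.0225 in MMA, not well above background, and 1.07 in LMA (at least 4.31; another probe gave 2.52). Pax7 measured 0.0126, not well above background, and 0.403 (at least 2.91). Lbx1, a homeobox gene of migrating muscle precursors, measured 0.0414, not well above background, and 1.09 (at least 4.35), but another of its probes differed by 0.02. Cdh15, which encodes the muscle cadherin, was measured in both tissues at 0.115 and 3.88, a difference of 5.07. Rbm24, an RNA-binding protein of muscle, went from 0.158 to 1.56 (3.30).

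Of the 17 myogenic regulators compared, 9 were higher by 2-fold or more, 5 of them as bounds, and Tead4 was lower by that much (median 1.30). Among the 11 measured in both tissues, 4 were higher and the median was 0.60. Tead4, a Hippo pathway transcription factor gene used in muscle and other cells, measured 0.534 in MMA and 0.194 in LMA (-1.46). Mef2a, Mef2c and Mef2d, partners of the MyoD family, differed by 0.38, 0.60 and 0.68, all under 2-fold. The receptor gene Met, needed for muscle precursors to migrate, had 1.41 and 1.42 and so did not separate the tissues.

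Genes of cell fusion and the contractile apparatus were higher in LMA by 2-fold or more in 37 of the 42 members compared, 15 of them as bounds, and lower by that much in 0. The median difference was 3.41, against -0.06 for all genes. Myh3, the embryonic myosin heavy chain gene, measured 0.0125 in MMA, not well above background, and 8.02 in LMA (at least 7.22), although another probe differed by only 0.77. Myl1, a fast myosin light chain gene, measured 0.113 and 8.20, a 72.3-fold difference (6.18, with other probes from 2.45 to 7.72). Actc1, the cardiac alpha-actin gene that early skeletal muscle also uses, measured 0.446 and 19.5, a 43.7-fold difference (5.45). For all 3 genes the LLS signal, at 1.31, 2.18 and 6.81, lay between those of the 2 arch tissues.

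Thin-filament genes differed in size. The troponin gene Tnnc2 measured 0.0303 in MMA, not well above background, and 4.55 in LMA (at least 6.41), and Tnnt1 measured 1.38 and 48.8 (5.14, with 5.22 by another probe), but Tnnt3 0.673 and 1.22 (0.86). Mymx, the micropeptide gene for myoblast fusion, measured 0.0273, not well above background, and 3.92 (at least 6.19), and its partner Mymk 0.0308, not well above background, and 0.296 (at least 2.46). At the future nerve contact, the acetylcholine receptor genes Chrng (at least 5.61, with 1.37 by another probe), Chrna1 (at least 4.44) and Chrnd (at least 3.55) were higher in LMA. The receptor-clustering gene Rapsn was 3.95 higher and the kinase gene Musk at least 2.92, with 0.74 by another probe. Of the calcium-handling genes, Sln was at least 4.66 higher, Casq2 at least 4.23 and Cacna1s 2.97. Ryr1, the calcium release channel gene, was 2.79 higher by its brightest probe but -0.20 by another.

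Other contractile genes differed less or were not measured. Myh7, the slow myosin gene shared with heart, measured 0.714 in MMA and 0.702 in LMA. Tpm2 was 0.27 higher by the probe used and 2.16 by a different one. Ckm, the muscle creatine kinase gene of mature fibres, and Cacng1 were not well above background in either tissue. In LLS minus MMA, which shares the MMA array and is therefore not an independent comparison, the medians were 1.81 for the myogenic regulators and 1.92 for the contractile and fusion genes. In these bulk samples, more muscle cells and more RNA of these genes per cell cannot be told apart.

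Promoter sequences of 3 of these genes are shown because their probes went from background in MMA to a clear signal in LMA, and because the E-box, the motif CANNTG bound by MyoD-family and other basic helix-loop-helix factors, was found in them. Each line gives the 150 bases before the annotated start, 5′ to 3′ on the gene's strand, from RefSeq on GRCm38.p6, with CANNTG in capitals. Myog lies at chr1:134289854-134290003 (plus strand), Chrng at chr1:87205661-87205810 (plus strand) and Chrna1 at chr2:73580339-73580488 (minus strand).
Myog: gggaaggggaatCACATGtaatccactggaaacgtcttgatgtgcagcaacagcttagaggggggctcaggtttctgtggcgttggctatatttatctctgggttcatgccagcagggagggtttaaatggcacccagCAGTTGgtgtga
Chrng: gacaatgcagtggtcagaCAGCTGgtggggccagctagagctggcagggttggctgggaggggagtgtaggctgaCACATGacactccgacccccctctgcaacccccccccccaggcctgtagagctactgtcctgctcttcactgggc
Chrna1: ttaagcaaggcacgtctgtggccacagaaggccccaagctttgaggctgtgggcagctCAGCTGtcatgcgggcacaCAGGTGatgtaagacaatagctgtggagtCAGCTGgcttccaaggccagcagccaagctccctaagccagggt

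These stretches hold 2 matches in Myog, 2 in Chrng and 3 in Chrna1, and the genes were picked after the matches were seen. A promoter entry was found for 29 of the 42 compared members of the contractile and fusion list. CANNTG, which reads the same on both strands, was present within 250 bases before the start in 26 of them (89.7%) and in 66.0% of all 27025 promoters. The more restricted form CAGCTG, which is contained in CANNTG, was present in 15 of the 29 (51.7%) and in 12.8% of all promoters. A match is a description of the letters and not a site of binding.

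Upstream of these genes, branchial muscle progenitor genes, which act in head muscle before and with the MyoD family, had 9 of 16 members higher by 2-fold or more, 2 lower by that much and a median of 1.26. Tbx1, the T-box gene of pharyngeal mesoderm, measured 1.70 in MMA and 7.26 in LMA (2.10). Msc, the musculin gene of the chewing muscle anlage, measured 0.0281, not well above background, and 0.389 (at least 2.86). Eya4 measured 0.471 and 3.82 (3.02), and Ebf3, a zinc-finger helix-loop-helix factor gene, 9.36 and 51.3 (2.45). The 2 lower members were LIM-homeobox genes: Lhx2 at 0.495 and 0.111 (-2.16) and Isl1 at 1.98 and 0.856 (-1.21).

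Connective tissue genes were the next group to stand higher in LMA. Tendon cells arise under Scx, which encodes scleraxis, and deposit fibrillar collagens with small proteoglycans around them. Scx measured 0.805 in MMA and 21.8 in LMA, a difference of 4.76, while LLS had 6.58. Ogn, a small proteoglycan gene, measured 0.0350, not well above background, and 3.90 (at least 6.18), and Dcn, the decorin gene, 0.303 and 2.16 (2.83). LMA was the brightest of these 3 tissues for Scx and Ogn, whereas LLS was brighter for Dcn at 4.68. In all, LMA exceeded MMA by 2-fold or more for 23 of 32 tendon and connective tissue genes, 8 of them as bounds, and the reverse held for 0 (median 1.39). With normexp background correction 16 were higher and the median was 0.96. Tnmd, the tenomodulin gene of maturing tendon, had only 0.0565 in LMA, and Bgn, the biglycan gene, differed by -0.29.

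Collagen genes followed the same direction in 19 of 32 members, with 1 lower by 2-fold or more and a median of 1.51. Col1a1 measured 0.752 in MMA and 9.91 in LMA (3.72), and Col1a2 19.6 and 95.5 (2.29, with 0.19 as the lowest of its other probes). The microfibril collagen gene Col6a1 measured 0.390 and 8.49 (4.44), and Col6a3 0.0339, not well above background, and 5.94 (at least 6.79, with 0.91 and 2.55 by its other probes). These 4 genes were brighter in LMA, whereas the fibrillar collagen genes Col2a1 (0.33) and Col11a2 (-0.36) stayed within 2-fold. Basement-membrane collagens did not share this: Col4a1 and Col4a2 differed by 0.47 and 0.19, and Col4a6 measured 1.57 and 0.0957, a fall of 4.03 on the log2 scale (-4.03). Loxl1, which cross-links elastic fibres, measured 0.198 and 2.78 (3.81).

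Islr and Hic1 led the measured and the bounded differences. Islr, an immunoglobulin-like protein gene of mesenchymal stromal cells also called Meflin, measured 0.115 in MMA against 14.6 in LMA, 7.70 in LLS and 12.5 in T, which is 128-fold higher in LMA than in MMA (7.0, error 0.25, where the error is the scanner software's own for the 2 signals). Hic1, a transcriptional repressor gene of mesenchymal progenitors, measured 0.0325 in MMA, not well above background, against 10.3 in LMA, 11.8 in LLS and 8.74 in T, at least 192-fold higher in LMA. With normexp background correction the Islr and Hic1 differences were both 5.86. Both genes were low in MMA alone and alike in the 3 later tissues. The related gene Islr2 was at least 6.78 higher and the homeobox gene Meox1 at least 6.74. Further down the ranking came Scrn1 (6.03), Tspan11 (5.47), Rgcc (5.46) and Penk, the proenkephalin gene (5.16). Tac1, the tachykinin precursor gene, was 5.94 higher, but its other probes ran from 0.00 to 3.91, and Pgm5 was 5.88 higher by the probe used and 1.20 by another.

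Cartilage and bone genes showed no common direction. Sox9, the master gene of cartilage, measured 1.51 in MMA and 0.304 in LMA (-2.32), and Hapln1, a link protein gene of cartilage matrix, 2.95 and 0.220 (-3.75). In contrast, Col9a2 measured 0.523 and 6.21 (3.57), and Gdf5, a joint-forming ligand gene, 0.0450, not well above background, and 0.501 (at least 3.22). Col2a1 had 4.51 and 5.68, within 2-fold. The cartilage list thus had 3 of 14 members higher and 3 lower (median 0.10), and the bone list 3 of 8 higher and 3 lower (median 0.24). The aggrecan gene Acan, the matrilin gene Matn1, and the bone matrix genes Ibsp, Bglap and Spp1 were not well above background in either tissue, and neither was the brightest probe of Runx2.

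**Figure D2:**
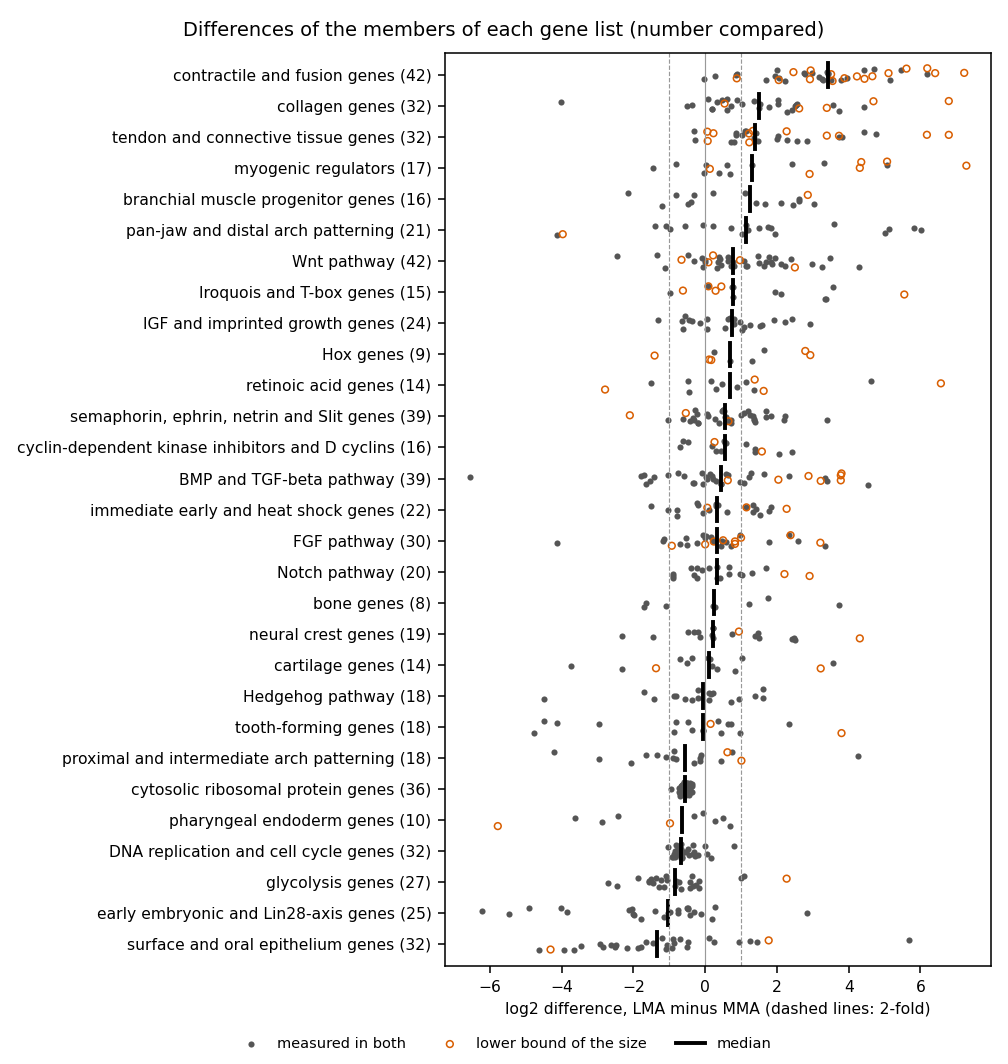
Log2 difference, LMA minus MMA, of each compared member of the 29 gene lists, 1 row per list with the number compared in brackets. Filled points were measured in both tissues, open points are bounds, thick bars are medians and dashed lines mark 2-fold. The contractile and fusion genes have the highest median (3.41) and the surface and oral epithelium genes the lowest (-1.33).

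Patterning genes of the arch mesenchyme included large differences in both directions. A signal from endothelin-1 and BMP ligands at the tip of the arch is known to turn on Hand2 and other distal genes, while nested Dlx genes set the position between the tip and the hinge. Of the 21 genes of the list of pan-jaw and distal arch genes, 12 were higher in LMA by 2-fold or more and 4 lower by that much, and the median was 1.14. Gsc, the goosecoid homeobox gene, measured 0.187 in MMA and 10.7 in LMA, a 57.0-fold difference (5.83). Alx4, an aristaless-type homeobox gene of facial mesenchyme, measured 0.842 and 27.2 (5.02). Osr1, an odd-skipped zinc-finger gene, measured 0.0731 and 4.72 (6.01) and was brighter still in LLS at 11.3. All 3 genes were lower in MMA than in either E11.5 tissue.

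The endothelin pathway itself was divided between ligand and receptor. Edn1, the ligand gene, measured 1.50 in MMA and 0.0851 in LMA (-4.14), and Ednra, the receptor gene of the mesenchyme, 2.79 and 9.98 (1.84). Among their target genes, Hand2 and Hand1 were higher in LMA, at 1.57 and 3.56 (1.18) and at 1.73 and 4.87 (1.50). The distal genes Dlx5 and Dlx6, described below, were lower in LMA (-1.65 and -1.33). The BMP-responsive genes Msx1 and Msx2 did not follow Hand2, with differences of -0.07 and -1.10, and Prrx2 differed by -1.41 while its relative Prrx1 differed by 1.04. Gbx2, a homeobox gene, went from 0.625 in MMA to 0.0120, not well above background, in LMA (a bound of -3.97).

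All 6 Dlx genes were at least 2-fold lower in LMA, and they were the 6 lower members among 18 genes of the proximal and intermediate list, whose median was -0.56. Dlx2 measured 8.65 in MMA and 1.10 in LMA (-2.97), and Dlx1 1.36 and 0.321 (-2.08). Dlx5 measured 2.68 and 0.853 (-1.65), Dlx6 1.04 and 0.412 (-1.33), and Dlx3 4.45 and 2.10 (-1.08, but down to -0.90 in size under other scalings). Dlx4 had the largest change in the main processing, from 1.08 to 0.0579 (-4.22, error 0.31). With normexp background correction the Dlx4 difference was -2.61, a smaller change than that of Dlx2. Dlx2 stayed between -2.97 and -2.75 under the alternatives. The genes of both the proximal pair Dlx1 and Dlx2 and the distal pair Dlx5 and Dlx6 were thus brighter in MMA. The other homeobox genes of this list, Barx1 (-0.87), Lhx8 (-0.80) and Lhx6 (0.43), stayed within 2-fold. Six2 went the other way, from 0.600 to 11.4 (4.25, with 1.23 by another probe). In LLS minus MMA, which shares the MMA array, the list's median was 0.39 and that of the pan-jaw and distal list 1.39.

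Iroquois and T-box genes had 6 of 15 members higher in LMA by 2-fold or more, 0 lower by that much and a median of 0.77, while the median of LLS minus MMA was -0.54. Irx1 measured 1.03 in MMA, 10.3 in LMA and 0.435 in LLS, and Irx2 0.233, 2.40 and 0.0827. Both Iroquois homeobox genes were high in LMA and lowest in LLS. Tbx4, a limb and arch T-box gene, measured 0.0415, not well above background, in MMA, 2.52 in LMA and 0.303 in LLS (at least 5.55 against MMA). Tbx5 measured 0.0648 and 0.766 (3.56), Tbx2 1.27 and 4.92 (1.95), and Tbx3 11.1 and 5.62 (-0.99, with -1.14 by another probe).

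Neural crest genes divided into members within 2-fold and members that differed. Twist1 measured 5.17 in MMA and 5.97 in LMA, Snai1 3.10 and 2.71, and Crabp1 195 and 139, all within 2-fold. Among the 19 genes compared, 7 were higher by 2-fold or more and 2 lower (median 0.22). Twist2, a relative of Twist1 in later mesenchyme, measured 3.51 and 20.0 (2.51), and Pdgfra, the growth factor receptor gene of crest mesenchyme, 7.17 and 18.6 (1.38). The lower genes were Sox9 and Tfap2a, the latter at 3.34 and 1.22 (-1.45). Sox10, a glial and migratory crest gene, measured 0.0706 and 0.377 (2.42).

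**Figure D3:**
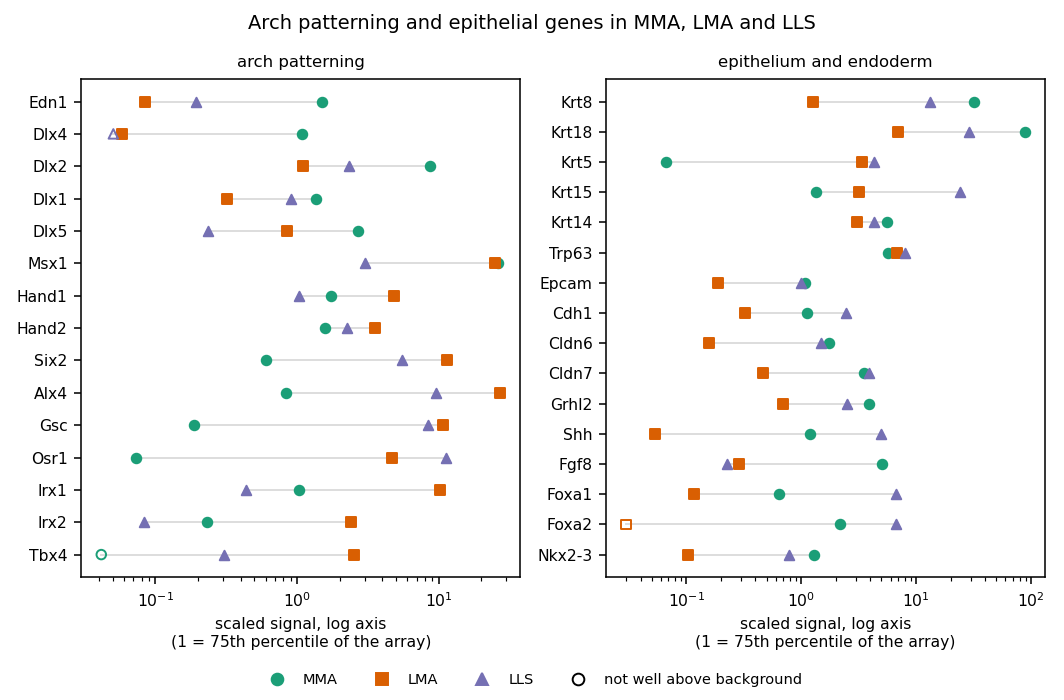
Scaled signal (log axis, 1 is the 75th percentile of the array) of arch patterning genes (left) and epithelial and endodermal genes (right) in MMA, LMA and LLS, 1 array each. Open symbols are not well above background. The Dlx genes and Edn1 are brighter in MMA than in LMA, Gsc, Osr1 and Alx4 the reverse, and Shh, Foxa1 and Foxa2 are lowest in LMA and highest in LLS.

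Epithelial genes gave the lowest median of the lists. Of 32 genes of surface and oral epithelium, 19 were lower in LMA by 2-fold or more and 4 were higher by that much, and the median was -1.33. Krt8 and Krt18 encode the paired keratins of simple, single-layered epithelium. Krt8 measured 31.8 in MMA and 1.28 in LMA, a 24.9-fold lower signal (-4.64, the same by another probe), and Krt18 89.1 and 6.98 (-3.67). The junction genes Cldn6 (1.75 and 0.158, -3.47) and Cldn7 (3.55 and 0.465, -2.93) and the adhesion genes Epcam (1.08 and 0.188, -2.52) and Cdh1 (1.13 and 0.325, -1.79) were also lower. So were the epithelial splicing and transcription factor genes Esrp1 (-2.62) and Grhl2 (-2.49). Rab25 had a bound of -4.31, with -0.60 by another probe.

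Basal keratin genes of layered epithelium did not share one direction. Krt5 and Krt15 were higher in LMA, while Krt14 was lower by less than 2-fold. A further keratin gene, Krt17, differed by -0.93. Krt5 measured 0.0662 in MMA and 3.42 in LMA, a 51.7-fold higher signal (5.69, error 0.33, but 4.03 with normexp). Krt15 measured 1.34 and 3.21 (1.26). Krt14, the partner of Krt5, had 5.63 and 3.06 (-0.88), and Trp63, the gene of the basal-cell factor p63, 5.76 and 6.85 (0.25, with other probes from -2.78 to -2.19). Cldn1, a tight-junction gene of the epidermal barrier, measured 0.0652 and 0.177 (1.44), and Pkp1, a desmosome gene, 0.0125, not well above background, and 0.183 (at least 1.77). Krt5, Krt15, Cldn1 and Pkp1 were the 4 higher members, of which Cldn1 (down to 0.52) and Pkp1 (down to 0.59) fell within 2-fold under 1 alternative each, and with normexp background correction 2 members were higher. The median of LLS minus MMA over this list was 0.17. How much epithelium each dissection held was not measured, so fewer epithelial cells and less RNA of these genes per cell cannot be told apart.

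Endodermal and signalling genes of the oral lining were also low in LMA. Shh, the Hedgehog ligand gene, measured 1.20 in MMA, 0.0531 in LMA and 4.99 in LLS, so LMA was 22.5-fold below MMA (-4.49, error 0.31). With normexp background correction the Shh difference was -2.80. The forkhead genes of endoderm Foxa2 and Foxa1 measured 2.19 and 0.637 in MMA, and 0.0300, not well above background, and 0.118 in LMA (a bound of -5.78, and -2.43). Nkx2-3 measured 1.29 and 0.104 (-3.63). Of 10 pharyngeal endoderm genes compared, 4 were at least 2-fold lower and 0 higher (median -0.65). Pax1, a pouch endoderm gene, differed by 0.68, and Nkx2-1, the thyroid and lung gene, was not well above background in either tissue.

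The Hedgehog pathway beyond its ligand moved less. Ptch1, the receptor gene that is also a target, measured 5.48 in MMA and 2.02 in LMA (-1.44), and Hhip, a feedback inhibitor gene, 1.29 and 0.396 (-1.71). Gli1, the most direct target gene, had 7.21 and 5.56, a difference of -0.38 by the probe used and 0.51 by another. The co-receptor genes Cdon (3.99 and 12.1, 1.60) and Boc (0.548 and 1.67, 1.60, with 0.00 by another probe) were higher. In total 3 of 18 members were higher by 2-fold or more and 3 lower, and the median was -0.05, which was 0.15 after cyclic loess.

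FGF genes were likewise split by member. Fgf8, an ectodermal ligand gene that patterns the early arch, measured 5.07 in MMA and 0.287 in LMA (-4.14), and its feedback target Dusp6 18.6 and 8.40 (-1.15). Fgf9 measured 0.238 and 1.20 (2.33), Fgf18 0.232 and 1.40 (2.59), and Fgf7 0.0339, not well above background, and 0.280 (at least 2.38). Fgfr4, a receptor gene of muscle progenitors, measured 0.113 and 1.15 (3.35, with other probes from 0.69 to 3.87). The targets Spry1 (-0.71), Spry2 (-0.50) and Etv5 (0.17) stayed within 2-fold, while Etv4 was 1.79 higher. Of 30 members, 7 were higher by 2-fold or more and 3 lower (median 0.33). Tooth-forming genes, a list that shares Fgf8, Shh and Dlx2 with others, had 2 of 18 higher and 4 lower. Sp6 was the remaining lower gene, at 2.24 and 0.0825 (-4.77, with -1.16 by another probe).

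Wnt pathway genes leaned toward LMA, with 19 of 42 members higher by 2-fold or more, 3 lower and a median of 0.78. Among ligands, Wnt9a measured 0.0722 in MMA and 0.808 in LMA (3.49) and Wnt11 0.134 and 0.464 (1.79), whereas the ectodermal ligand gene Wnt6 measured 6.64 and 2.61 (-1.35) and Wnt4 3.30 and 1.51 (-1.13). Among secreted inhibitor genes, those higher by 2-fold or more were Wif1 at 0.124 and 2.43 (4.29), Dkk2 at 0.173 and 1.66 (3.26) and Sfrp2 at 1.83 and 7.86 (2.10), while Dkk1 (-0.48), Sfrp1 (0.42), Frzb (0.73) and Dkk3 (0.77) stayed within 2-fold. The receptor genes Fzd1 (2.22) and Fzd10 (1.70) were higher too. The direct target Axin2 had 0.323 and 0.725 (1.16). Tcf7, a nuclear effector gene, was the third lower member, at 0.828 and 0.149 (-2.47). Rspo2, an enhancer of Wnt signalling, was 2.98 higher by the probe used and 0.35 by another.

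In the BMP and TGF-beta list 14 of 39 members were higher by 2-fold or more and 7 lower (median 0.45). The TGF-beta ligand genes Tgfb2 (0.656 in MMA and 15.3 in LMA, 4.55) and Tgfb3 (0.388 and 3.89, 3.33) were higher, as was the induced matrix gene Tgfbi (5.91 and 29.8, 2.33). The antagonist genes Grem1 (0.121 and 1.28, 3.40) and Fst (0.0399, not well above background, and 0.736, at least 3.78) were higher, while Bmper was 1.70 lower on the log2 scale (-1.70). The ligand gene Bmp4 differed by 0.97. Of genes induced by BMP signals, Id2 (-0.31), Smad6 (0.21) and Smad7 (0.29) stayed within 2-fold, while 4 others were lower by at least that much. Id1 measured 36.7 and 11.7 (-1.65), Id3 25.3 and 12.4 (-1.03), Id4 0.554 and 0.161 (-1.79) and Bambi 26.8 and 9.99 (-1.42). Wfikkn1, which encodes a secreted binder of growth and differentiation factors, measured 13.6 in MMA, 0.145 in LMA, 0.123 in LLS and 0.103 in T. It was high in MMA alone and had the lowest of all measured differences (-6.56, 94.4-fold lower, error 0.22).

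Retinoic acid genes contained some of the largest single differences. Aldh1a2, which makes retinoic acid, measured 0.0263 in MMA, not well above background, and 5.10 in LMA (at least 6.57). Cyp26b1, which degrades it, measured 0.185 and 4.54 (4.62), and Cyp26a1, with the same role, 0.276 and 0.0376, not well above background (a bound of -2.79). The gene for synthesis and one gene for breakdown were thus both brighter in LMA. Of 14 members, 6 were at least 2-fold higher and 2 lower (median 0.68). The Notch list had 5 of 20 higher and 0 lower (median 0.33, with 2 higher under normexp), with the ligand gene Dll1 at 0.0123, not well above background, and 0.404 (at least 2.91). Guidance genes had 13 of 39 higher and 2 lower (median 0.55), among them Sema3f (2.20), Epha4 (1.84) and the neurotrophin gene Bdnf (3.39).

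A joint list of IGF genes and growth genes, many under genomic imprinting, had more members brighter in LMA than in MMA. Cdkn1c, which encodes the cell-cycle inhibitor p57, measured 52.4 in MMA, 280 in LMA, and 345 in LLS (2.42 in LMA minus MMA). Plagl1 measured 28.3 and 132 (2.22, with other probes from 0.01 to 1.22), Dlk1 61.6 and 148 (1.26) and Igf1, an unimprinted growth factor gene, 0.825 and 6.27 (2.93, with 0.94 as the lowest of its other probes). H19, at 316 and 328, and Gpc3, at 62.9 and 64.6, were equally bright in both. Of 24 genes, 9 were higher by 2-fold or more and Igfbp6 was lower by that much (-1.32, list median 0.75). At any size 17 were higher and 7 lower, the latter including Mest (-0.63), Phlda2 (-0.65) and Grb10 (-0.38).

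Genes of the early embryo were also lower in LMA. Lin28a and Lin28b encode RNA-binding proteins that block the maturation of let-7 microRNAs in young tissue. Lin28a measured 21.3 in MMA against 0.287 in LMA, 0.246 in LLS and 0.187 in T, which is 74.3-fold lower in LMA than in MMA (-6.21, with -4.22 by another probe). Lin28b measured 44.6, 2.76, 2.83 and 0.149 in the same order (-4.02, with -3.35 by another probe). Both genes were bright in MMA and far lower in each of the 3 later tissues.

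Nr6a1, an orphan nuclear receptor gene of the early embryo, measured 12.5 in MMA and 0.283 in LMA (-5.47), and Prtg, the protogenin gene, 24.7 and 0.823 (-4.90). Igdcc3, an immunoglobulin-family gene related to Prtg, measured 38.7 and 2.68 (-3.85). Mycn measured 43.7 and 11.2 (-1.97), and the DNA-binding factor genes Arid3a and Arid3b differed by -2.04 and -2.02. Of 25 genes compared, 13 were lower by 2-fold or more, and Dnmt3a alone was higher by that much (median -1.04). In LLS minus MMA, sharing the MMA array, the median was -1.12. The de novo DNA methyltransferase genes went opposite ways: Dnmt3b from 16.6 to 3.83 (-2.12) and Dnmt3a from 1.45 to 10.3 (2.83, with 0.12 by another probe).

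Some known let-7 targets differed by less than 2-fold, and the part of let-7 in the larger differences above was not tested. Hmga2 measured 50.7 in MMA and 46.7 in LMA (-0.12), and Igf2bp1 29.3 and 17.2 (-0.77). Igf2bp3 measured 37.7 and 26.6 (-0.50), and Trim71 0.975 and 0.705 (-0.47). Hmga1, a relative of Hmga2, measured 252 and 96.4 (-1.39), although its other probes ran from -1.57 to 0.62. The RNA amount of mature let-7 itself was not measured on these arrays.

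In a list of 27 glycolysis and hypoxia-responsive genes, 13 were lower in LMA by 2-fold or more and 3 higher by that much (median -0.84). The hypoxia-responsive members were Bnip3, Vegfa, Ankrd37, Egln3, Car9 and Ndrg1, and the 13 lower members include Bnip3. The higher members were Ldhb, Ndrg1 and Eno2 (at least 2.27). Glycolysis turns glucose into pyruvate and lactate, and its genes are shared targets of the hypoxia response. The glucose transporter genes Slc2a3 (23.2 in MMA and 3.57 in LMA, -2.70) and Slc2a1 (34.5 and 9.36, -1.88) led the list together with Pdk1, a kinase gene that keeps pyruvate out of the mitochondrion (15.4 and 2.83, -2.45, with -0.38 as the smallest of its other probes). Enzymes along the pathway followed: Pfkl (7.77 and 2.61, -1.57), Pgam1 (174 and 58.9, -1.56), Tpi1 (104 and 38.2, -1.45), Aldoa (410 and 158, -1.37) and Pgk1 (393 and 168, -1.23, with -0.39 by another probe). The mitophagy gene Bnip3, a hypoxia-responsive gene, measured 28.0 and 9.85 (-1.51). The other hypoxia-responsive genes of the list did not share this: Vegfa differed by -0.17, Ankrd37 by -0.25, Egln3 by -0.37 and Car9 by -0.18. Ndrg1 was 1.01 higher in LMA. Ldhb, the lactate dehydrogenase subunit gene of oxidative tissue, was higher in LMA, at 26.4 and 56.0 (1.08), while Ldha had 220 and 133 (-0.72, with -2.34 by another probe). With quantile normalization or cyclic loess the list's median was -0.54 and 9 members were at least 2-fold lower.

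The promoters of Pgk1 and Pgam1 are shown because ACGTG, the core of the hypoxia response element, lies within the 150 bases before their starts, again after the matches were seen. Sequences are from RefSeq on GRCm38.p6, 5′ to 3′ on the gene's strand, with ACGTG on either strand (ACGTG or CACGT) in capitals. Pgk1 lies at chrX:106186950-106187099 (plus strand) and Pgam1 at chr19:41911721-41911870 (plus strand).
Pgk1: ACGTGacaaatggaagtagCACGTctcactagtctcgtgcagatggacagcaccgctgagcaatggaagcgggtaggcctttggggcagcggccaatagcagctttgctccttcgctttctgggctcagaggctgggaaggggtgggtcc
Pgam1: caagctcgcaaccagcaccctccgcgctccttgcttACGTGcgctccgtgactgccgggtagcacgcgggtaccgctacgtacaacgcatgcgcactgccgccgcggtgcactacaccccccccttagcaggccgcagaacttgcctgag

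Within 250 bases before the start, ACGTG on either strand was present in 10 of the 25 list members with a promoter entry (40.0%). It was present in 16.6% of all 27025 promoters. Because the list also held hypoxia-responsive genes, the 40.0% cannot be read as a share of glycolysis genes alone. ACGTG overlaps the E-box where the letters are CACGTG. The count describes the letters of these windows and says nothing of the factor.

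Cell-cycle and ribosomal protein genes were lower in LMA by small, even steps that depended on the scaling. Of 32 DNA replication and cell cycle genes, 29 were lower at any size, but only Cdc6 reached 2-fold (6.58 in MMA and 3.21 in LMA, -1.04), and 0 were 2-fold higher. Their median was -0.67, and -0.32 with quantile normalization. Mki67, the proliferation marker gene, had 43.0 and 48.1 (0.16). All 36 cytosolic ribosomal protein genes were lower, each within 2-fold. Their median was -0.57, but -0.04 with quantile normalization, where 13 were higher and 22 lower, and -0.02 with cyclic loess. The direction of this group thus turned with the scaling. Inhibitors of cyclin-dependent kinases and D cyclins had 6 of 16 members at least 2-fold higher and 0 lower (median 0.54), led by Cdkn1c and by Gadd45b (0.265 and 1.10, 2.05). Of 22 immediate early and heat shock genes, which respond to handling, 9 were at least 2-fold higher and 2 lower (median 0.34), with Jun at 2.16 and 5.43 (1.33), but 4 were higher and 0 lower with normexp (median 0.13).

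**Figure D4:**
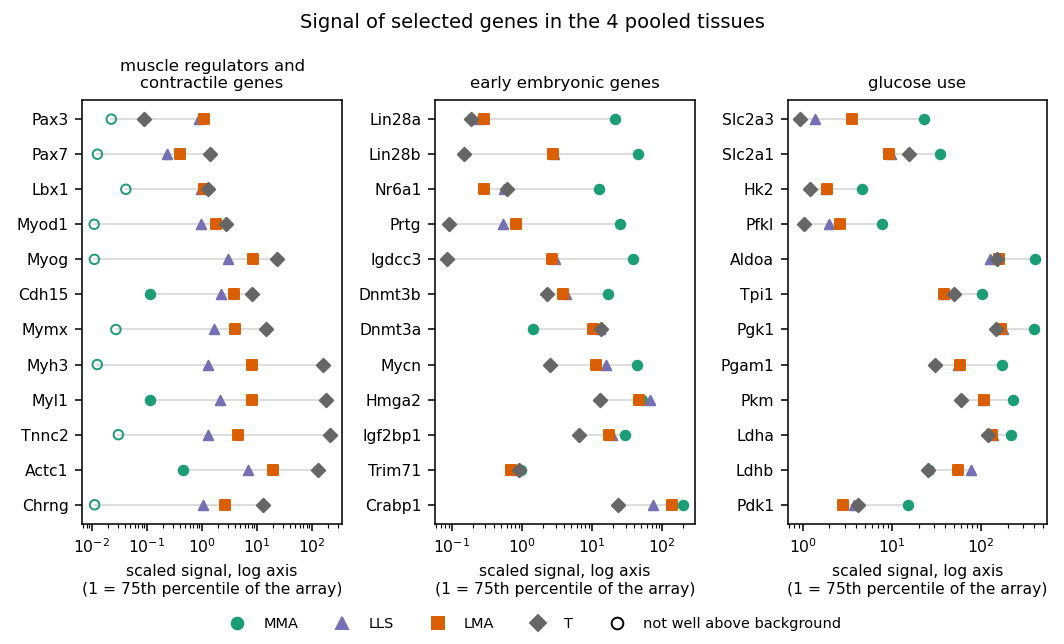
Scaled signal (log axis, 1 is the 75th percentile of the array) of muscle genes (left), early embryonic genes (centre) and glucose-use genes (right) in MMA, LLS, LMA and T, 1 array each. Open symbols are not well above background. Muscle genes such as Myog lie near background in MMA and are higher in the other tissues, and Lin28a is at 21.3 in MMA and 0.287 in LMA while Hmga2 is at 50.7 and 46.7.

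Markers of other cell types that the dissections could hold were read in the same way, and their part in the results above was not tested. Macrophage markers were at least 2-fold higher in LMA in 14 of 17 genes, 8 of them as bounds, and lower in 0, with a median of 2.24 (1.36 with normexp). Cx3cr1 measured 0.0725 in MMA and 1.23 in LMA (4.09), Csf1r, the growth factor receptor gene of macrophages, 0.740 and 2.18 (1.56), and Adgre1, which encodes F4/80, 0.0121, not well above background, and 0.221 (at least 2.04). The summed scaled signal of the list was 23.9 in MMA and 31.7 in LMA, and includes Ptprc (8.31 and 5.31) and Itgam (13.3 and 15.8), which did not differ by 2-fold. Spi1, which encodes the macrophage factor PU.1, was not well above background in either tissue.

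Blood and vessel markers differed less. Globin genes gave bright signals in both tissues, with the embryonic gene Hbb-y at 472 in MMA and 475 in LMA and Hbb-bh1 at 471 and 214 (-1.13). The near-identical genes Hba-a1 and Hba-a2, whose probes may share RNA, both differed by -0.22. Of 17 erythroid markers, 1 was at least 2-fold higher (Hbb-bt, 16.5 and 54.4, 1.72) and 2 were lower, the regulator genes Klf1 (-1.85) and Gata1 (-1.94), while their summed signal was 890 in MMA and 806 in LMA. Endothelial markers had 3 of 18 higher (1 with normexp) and 0 lower (median 0.47), with Pecam1 at 0.265 and 0.687 (1.37), Kdr at 6.48 and 7.97 (0.30) and sums of 40.3 and 46.0. Pericyte and smooth muscle markers had 4 of 10 higher (2 with normexp) and 0 lower (median 0.76, sums of 45.4 and 58.9), with Kcnj8 at least 4.09 higher and Acta2 0.07.

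Among nerve markers, the neuron list had a higher summed signal than the Schwann cell and glia list. Of 17 neuron markers compared, 5 were at least 2-fold higher (3 with normexp) and 1 lower (median 0.27, sums of 28.5 and 32.7), with Nefm at 0.0293, not well above background, and 1.04 (at least 4.28) and Dcx at 0.0543 and 0.594 (3.45). Neurod1, Neurog2, Prph and Scg2 were not well above background in either tissue. Schwann cell and glia markers had 4 of 11 higher and 0 lower (median 0.94, or 0.19 with normexp; sums of 3.32 and 7.74), with Ngfr at 0.256 and 2.97 (3.54), while Cdh19 was not well above background. Melanoblast markers had 0 of 6 higher and 2 lower.

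Heart genes mattered here because they overlap with muscle genes. Of 16 cardiac and outflow tract markers compared, 5 were at least 2-fold higher and 3 lower (median 0.21, sums of 11.9 and 17.9). Myl7, the atrial myosin light chain gene, was lower in LMA, at 1.22 and 0.120 (-3.34), and Gata6 had a bound of -2.72. Of the other heart genes, Nppa, Nppb, Gata4 and Ryr2 were not well above background in either tissue. Nkx2-5 was well above background in both and higher in LMA (1.67). Tnni3 (0.93), Gata5 (-0.06) and Smyd1 (-0.02) were also well above background in both and differed by less than 2-fold. Myl3, Myh6 and Tnnt2, which embryonic skeletal muscle also uses, were higher in LMA (at least 4.54, 2.63 and 3.41, the last with 0.45 by another probe).

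The extraction text of the labels speaks of cerebellum, although the tissue labels name the arch, so neural markers were checked. Of 19 cerebellum and neural tube markers, Atoh1, Pax6, En1, Zic2 and Neurod1 were among those not well above background in either tissue. In contrast, 9 were well above background in both tissues. Among these, En2 (-0.13), Zic1 (0.22), Pax2 (-0.29), Neurod2 (-0.03), Barhl1 (-0.60) and Sox1 (-0.46) differed by less than 2-fold. Whether neural tissue was present was not tested. Of 12 cerebellum and neural tube markers compared, 3 were at least 2-fold lower in LMA and 1 higher (sums of 5.61 and 4.54). Sox2, shared with oral epithelium and endoderm, measured 1.50 in MMA and 0.128 in LMA (-3.55), Cbln1 1.88 and 0.137 (-3.78), and Pcp2 0.111 and 3.08 (4.80). Forebrain, eye and pituitary markers had 2 of 8 lower and 0 higher, with Lhx2 at 0.495 and 0.111 and Otx2 at 0.196 and 0.0591 (-1.73), and otic and epibranchial placode markers 3 of 9 lower and 1 higher. Salivary gland and thyroid markers had 1 of 3 lower, Foxe1 (-2.87, with -0.73 by another probe), and mesothelium markers 1 of 5 higher and 2 lower.

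**Figure D5:**
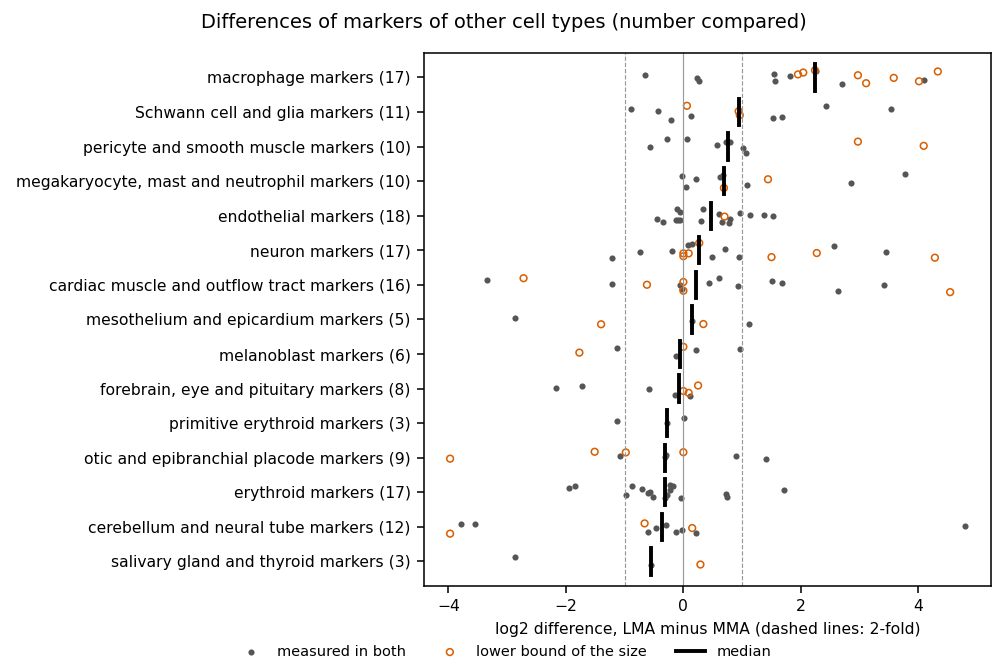
Log2 difference, LMA minus MMA, of each compared marker of 15 other cell types or tissues, 1 row per list with the number compared in brackets. Filled points were measured in both tissues, open points are bounds, thick bars are medians and dashed lines mark 2-fold. Macrophage markers have the highest median (2.24), and the other medians lie between -0.55 and 0.94.

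Further genes at the low end belonged to none of the lists. Lrp2, the megalin receptor gene of embryonic epithelia, measured 3.51 in MMA and 0.102 in LMA (-5.11, with other probes from -4.14 to -0.64). Hopx, a homeodomain-only protein gene, measured 5.08 and 0.158 (-5.01), and the melanocortin receptor accessory gene Mrap 1.18 and 0.0569 (-4.37). Afp, the alpha-fetoprotein gene of yolk sac and liver, measured 1.30 in MMA and 0.0386, not well above background, in LMA (a bound of -5.03). Car4, a carbonic anhydrase gene, had a bound of -5.04 and Tal2 one of -3.85. All of these were lower in LMA than in MMA, and the LLS signals of Lrp2 (0.335), Hopx (0.103), Mrap (0.0567) and Afp (0.135) were low as well.

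The positions of the probes behind the leading values are those in the file headers, on mouse build mm9. The Myog probe lies on chromosome 1 at 136188874 to 136188933, the Islr probe on chromosome 9 at 58004219 to 58004278, the Hic1 probe on chromosome 11 at 74978107 to 74978166 and the Gsc probe on chromosome 12 at 105709426 to 105709485. The Lin28a probe lies on chromosome 4 at 133559245 to 133559304, the Wfikkn1 probe on chromosome 17 at 26014635 to 26014694 and the Krt8 probe on chromosome 15 at 101827214 to 101827273. Whether a probe lies in a coding exon or in a UTR was not analysed here.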

How the data were processed

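The intensity values are the background-subtracted processed signals of single-colour Agilent arrays, which the authors extracted with Agilent Feature Extraction (version 10.7.1.1 per the file headers, 9.5.1.1 per the submitters' processing notes). Per the labels' protocols, RNA was isolated with TRIzol and an SV kit from Promega and labelled with a low-input kit. The deposited value table also holds intensity; its columns share nearly 1 distribution, so a between-array normalization was applied, whose method is not given in the sources used here. That table lacks 4460 of the probes used here, and the medians of its columns (log2) are 5.66 for MMA, 5.67 for LLS, 5.68 for LMA and 5.70 for T.

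Control spots and flagged spots (85 in MMA, 65 in LMA) were left out, as were 4 probes with no unflagged spot, which left 56601 probes. Spots of a probe were averaged and divided by the 75th percentile of the array, a signal of 421.8 in MMA and 506.7 in LMA. Of the probes, 33891 were named by RefSeq accession, 9464 by a current symbol, 489 by an older symbol and 2358 as in the files, and 10399 had no name, which gave 27073 genes. The brightest probe over the 4 arrays stood for a gene. A dim value was set to the higher of itself and the lowest value well above background on its array, and genes dim in both tissues were not compared, which left 17704 genes, 15486 of them measured in both.

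With 1 array per tissue no test was made and genes were counted at 2-fold. The comparison, the 44 gene lists (941 of 944 entries found, 852 different genes) and the naming rule were chosen with earlier results of these data known. The genes named are the 12 highest and 12 lowest measured differences, the 6 largest bounds in each direction and members of the lists; clone, Riken, gene-model and pseudogene names were left out. A few genes chosen by this rule are not reported here. In simulated data with a spot SD only, 48 of 50 genes made 2.5-fold higher and 49 of 50 made 2.5-fold lower were counted, against 1 of 50 and 0 of 50 at 1.5-fold and 0 of 16347 unchanged genes. The changed genes were drawn from brighter ones, and the same SD was used at every signal level. These counts therefore do not cover the larger error of dim genes and bounds. Alternatives were quantile normalization and cyclic loess (limma 3.58.1 in R 4.3.3), normexp with an offset of 50, another percentile, other filters on dim probes, the median over probes, the deposited table and a 4-fold threshold. Python 3.11.15 was used otherwise.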

Additional observations from a re-analysis of the deposited data

Results flagged for a closer look

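For 8 genes of the lists, LMA and LLS, both dissected at E11.5, differed from MMA by at least 2-fold in opposite directions. The difference between these contrasts was not tested, since each tissue has 1 array, and both contrasts share the MMA array. The homeobox genes Irx1 (3.33 in LMA minus MMA and -1.24 in LLS minus MMA) and Irx2 (3.36 and -1.50) were higher in LMA and lower in LLS. Shh (-4.49 and 2.06), Foxa1 (-2.43 and 3.40) and Foxa2 (a bound of -5.78, and 1.61) were lower in LMA and higher in LLS. The epithelial genes Cdh1 (-1.79 and 1.12), Esrp2 (-1.64 and 1.27) and Perp (-1.21 and 1.34) were likewise lower in LMA and higher in LLS.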

How the results depend on the processing

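The counts of at least 2-fold higher and lower genes, 1837 and 1260, were 1113 and 753 with normexp background correction, 3303 and 2251 when dim probes were neither filtered nor floored, and 621 and 257 at a 4-fold threshold. The other 12 counts were within 1.5 times these. List members outside the largest differences were not checked one by one with the median over probes. With that median the Hedgehog list had 2 members at least 2-fold higher instead of 3. No gene named in the report with a difference of at least 2-fold changed direction under the alternatives run for it, but some shrank below 2-fold under at least 1 of them. The smallest sizes were -0.70 for Pgk1, -0.85 for Aldoa, -0.90 for Dlx3, -0.86 for Cdc6, -0.71 for Id3, -0.89 for Msx2, -0.83 for Dusp6, -0.90 for Hmga1, -0.65 for Hbb-bh1, -0.94 for Wnt4, -0.67 for Igfbp6, -0.99 for Esrp2, -0.91 for Perp and -0.85 for Otx2, and 0.82 for Adgre1, 0.59 for Pkp1, 0.52 for Cldn1, 0.98 for Wnt11, 0.89 for Axin2 and 0.99 for Pecam1. For Eno2 and Ndrg1 the smallest sizes were 0.97 and 0.85. The medians of 6 lists near 0, among them the Hedgehog, tooth-forming and melanoblast lists, took the other sign under at least 1 alternative. The ribosomal protein list lost its common direction under quantile normalization and cyclic loess. Normexp lowered the median of the contractile and fusion genes from 3.41 to 2.27, with 36 members still at least 2-fold higher, and that of the macrophage markers from 2.24 to 1.36, with 10 members. It also moved the medians of the tendon (1.39 to 0.96), collagen (1.51 to 1.13), Hox (0.70 to 0.31), BMP and TGF-beta (0.45 to 0.14) and Schwann cell (0.94 to 0.19) lists. Without filter and floor the medians were 2.28 for the tendon, 1.86 for the myogenic, 3.14 for the macrophage and 1.53 for the Schwann cell lists. Over genes measured in both tissues they were 0.60 for the myogenic, 1.37 for the Iroquois and T-box, 1.56 for the macrophage and -0.19 for the pharyngeal endoderm lists. The cause was not tested. No replicate could be left out and no paired analysis was possible because each tissue has 1 array. Dim probes limit the comparison, since a bound depends on the lowest signal called well above background and on the background correction. With normexp the bounds of Hic1 (7.58), Myog (7.28) and Myh3 (7.22) became 5.86, 5.47 and 5.28. Without filter and floor these differences were 8.31, 9.55 and 9.32.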
